A study of Mus musculus with 6 samples.

Results

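Genes that mark the principal neurons of single hippocampal fields were compared between RNA fractions of hippocampus. Input was RNA of the cleared homogenate, and Positive was RNA on ribosomes pulled down through a tag expressed from a microglial driver. The set was given by name and held 8 genes of the 15388 in the deposited table, and all 8 were present. The dentate markers were Prox1, Calb1, C1ql2 and Dsp, and the markers of the cornu ammonis (CA) fields were Wfs1, Fibcd1, Spink8 and Neurod6. All 3 mice were of the genotype Cx3cr1-Cre/ERT2+; NuTRAP+ and about 3 months old, received tamoxifen on 5 consecutive days, and gave hippocampus 3 to 4 weeks later. Cre under the Cx3cr1 promoter acts in microglia and in other cells that use this promoter, and NuTRAP, a Cre-dependent reporter, then places EGFP on the ribosomes of those cells. Each mouse, numbered 201, 207 or 208, gave 1 Input library from the cleared homogenate and 1 Positive library from the ribosomes bound by anti-GFP beads, so that every library came from treated animals of one genotype and no untreated or Cre-negative group was compared.

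The hippocampus is built from fields of excitatory principal neurons joined in a chain. Granule cells of the dentate gyrus receive cortical input and send their axons, the mossy fibres, to pyramidal neurons of CA3, which project to CA1, while CA2 lies between the last pair. Each field keeps its own transcription factors, calcium-binding proteins and adhesion molecules in the adult, which makes single genes usable as labels of a field in tissue RNA. Principal neurons are not a target of a Cx3cr1-driven reporter, and translating ribosome affinity purification (TRAP) also retains some RNA from cells without the tag.

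The sequences before the gene starts are shown for the markers whose 250 bases upstream overlapped no annotated exon, since granule and pyramidal markers are regulated genes and the bases place each of them in the genome. Of the 8 markers, 6 had an entry in the RefSeq promoter table (GRCm38.p6), and Calb1 and Spink8 had none. Each line gives the 250 bases before the RefSeq start, from 5′ to 3′ on the strand of the gene, with capitals at every match of the E-box letters CANNTG, which basic helix-loop-helix factors such as Neurod6 bind in some contexts.
C1ql2, chr1:120340332-120340581, plus strand: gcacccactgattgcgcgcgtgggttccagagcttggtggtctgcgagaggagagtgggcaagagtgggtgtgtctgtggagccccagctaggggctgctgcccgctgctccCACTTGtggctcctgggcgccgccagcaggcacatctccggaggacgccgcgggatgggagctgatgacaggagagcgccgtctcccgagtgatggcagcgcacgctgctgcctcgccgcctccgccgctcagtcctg
Prox1, chr1:190170828-190171077, minus strand: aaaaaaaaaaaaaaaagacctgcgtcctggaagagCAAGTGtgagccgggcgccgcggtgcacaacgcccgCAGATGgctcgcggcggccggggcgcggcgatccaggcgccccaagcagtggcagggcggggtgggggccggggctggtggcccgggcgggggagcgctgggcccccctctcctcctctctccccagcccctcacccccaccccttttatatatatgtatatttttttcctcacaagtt
Fibcd1, chr2:31846006-31846255, minus strand: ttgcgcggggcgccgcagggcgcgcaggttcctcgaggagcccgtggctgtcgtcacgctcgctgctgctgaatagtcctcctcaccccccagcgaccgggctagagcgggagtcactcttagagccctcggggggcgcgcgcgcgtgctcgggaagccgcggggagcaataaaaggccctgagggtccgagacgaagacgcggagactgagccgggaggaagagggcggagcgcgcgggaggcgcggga
Neurod6, chr6:55681264-55681513, minus strand: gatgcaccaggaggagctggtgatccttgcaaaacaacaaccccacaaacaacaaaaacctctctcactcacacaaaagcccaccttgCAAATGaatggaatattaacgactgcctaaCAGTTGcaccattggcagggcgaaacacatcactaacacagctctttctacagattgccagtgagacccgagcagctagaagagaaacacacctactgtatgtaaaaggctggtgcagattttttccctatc

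The motif reads the same on both strands, and 66.2% of all 32817 promoter windows of this length held at least 1 match. C1ql2 held 1 match, whose first base lay 138 bases before the start. Prox1 held 2, at 215 and 179 bases, and Neurod6 held 2, at 162 and 132 bases, while Fibcd1 held 0, so the motif did not divide dentate from CA markers. Base composition differed more. The windows of C1ql2 and Prox1 held 20 CG dinucleotides each and that of Fibcd1 held 34, against a median of 6 over all windows, whereas Neurod6 held 3 at a GC content of 46.0%, below the median of 52.4%. The windows of Dsp, with 22 CG dinucleotides and 0 matches, and of Wfs1, with 23 and 1, overlapped annotated exons and are not printed. Prox1 had 2 RefSeq entries, and the window nearest to the start of the gene annotation was taken.

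The Input libraries held 14879734 to 16488460 reads over the deposited genes and the Positive libraries 15790210 to 17757918. Values below are scaled reads, that is, deposited reads over the size factor of the library, which ran from 0.953 to 1.08. The fold change is Positive over Input, tested by the quasi-likelihood test of edgeR over 15343 genes, and a gene was called where the p-value adjusted by Benjamini-Hochberg was under 0.05. The microglial label was met, since 8 of 8 microglial markers were called higher in Positive, with a median log2 fold change of 4.62 and none of them at 0 in any library. Cx3cr1, the fractalkine receptor, had a log2 fold change of 4.77 ± 0.14 (SE, n = 3 mice). Both libraries of an animal came from the same homogenate, so a fold change compares the RNA of the fractions and not numbers of cells. These bulk libraries do not show which cells the RNA of a gene came from.

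Of the 8 subfield markers, 6 were called, 3 dentate markers higher in Positive and 3 CA markers lower. Over all genes tested 46% were called, 24% higher and 22% lower. No dentate marker was called lower and no CA marker higher. The median log2 fold change was 0.42 for the 4 dentate markers and -0.47 for the 4 CA markers, against -0.01 over all genes tested. Both medians kept their sign in each animal, at 0.30, 0.27 and 0.64 for the dentate markers and at -0.45, -0.54 and -0.42 for the CA markers in animals 201, 207 and 208. Without Dsp, which stood far from the rest, the dentate median was 0.35. Without the Positive library of animal 208 the dentate median was 0.22 with Dsp and 0.17 without it.

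Dsp encodes desmoplakin, which ties desmosomal junctions to intermediate filaments, and in the hippocampal formation it is a label of granule cells. Its gene lies on chromosome 13 of GRCm38 (38151294 to 38198577, plus strand). It had 747.7, 811.2 and 974.8 scaled reads in the Input libraries of animals 201, 207 and 208, and 6212, 15366 and 9695 in the Positive libraries. The lowest Positive library stood far above the highest Input library, and animal 207 was the highest. The mean rose from 845 ± 117 to 10425 ± 4620 (SD over 3 libraries), which on the log2 scale was 3.63 ± 0.26 (SE; edgeR adjusted p = 1.56e-07). The rise was 8.31-fold, 18.9-fold and 9.95-fold within the 3 animals, a wider spread than that of any other marker of the set. Dsp ranked 284 from the top of all genes tested by log2 fold change, and 3.75% of all genes were called higher by over 5-fold.

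C1ql2 encodes a secreted C1q-like protein that granule cells release at mossy fibre synapses, where it helps to organise glutamate receptors. The gene is on chromosome 1 (120340582 to 120343174, plus strand). It had 1435, 1690 and 1747 scaled reads in Input and 1829, 2118 and 2900 in Positive, in the same order of animals. The fractions did not overlap, but the lowest Positive library was close to the highest Input library. The log2 fold change was 0.49 ± 0.14 (edgeR adjusted p = 0.0127), 1.27-fold, 1.25-fold and 1.66-fold within the animals. With animal as a block it was 0.47 ± 0.09 (edgeR adjusted p = 0.000432). Without the Positive library of animal 208 it was 0.28, still called. Without the Input library of animal 201 it was 0.41 and was not called (edgeR adjusted p = 0.0688), and limma on the deposited log2 values, an alternative added after the data were seen, did not call it either (0.45, adjusted p = 0.0984).

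Prox1 encodes the homeodomain transcription factor that sets and keeps granule cell identity, and it is also made by interneurons of caudal origin. It is encoded on chromosome 1 (190118035 to 190170714, minus strand). The Input libraries held 1211, 1336 and 1452 scaled reads and the Positive libraries 1442, 1547 and 2117. The fractions overlapped by 1 library, although Positive was higher than Input in 3 of 3 animals, by 1.19-fold, 1.16-fold and 1.46-fold. The log2 fold change was 0.35 ± 0.13 (edgeR adjusted p = 0.0386). This call was lost under total count scaling (0.27, edgeR adjusted p = 0.0911), without the Input library of animal 201 (0.29, 0.147) or 207 (0.35, 0.0965), without the Positive library of animal 208 (0.17, 0.134) and with limma (0.32, 0.176). With animal as a block Prox1 stood at 0.34 ± 0.08 and was called (edgeR adjusted p = 0.00379). Animal 208 gave the highest Positive value of every marker of the set except Dsp and Spink8.

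Calb1 encodes calbindin, a calcium buffer abundant in mature granule cells and also present in superficial CA1 pyramidal neurons and in some interneurons. Its gene lies on chromosome 4 (15881264 to 15908064, plus strand). The Input libraries held 1591, 1643 and 1750 scaled reads and the Positive libraries 1587, 1586 and 1888. The fractions overlapped, and Positive was higher in 1 of 3 animals. The log2 fold change was 0.02, with an approximate 95% interval from -0.15 to 0.19 (edgeR adjusted p = 0.863). It changed sign under total count scaling and when single libraries were left out. Calb1 is not limited to granule cells, as stated above, and whether this bears on its value was not tested.

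**Figure D1:**
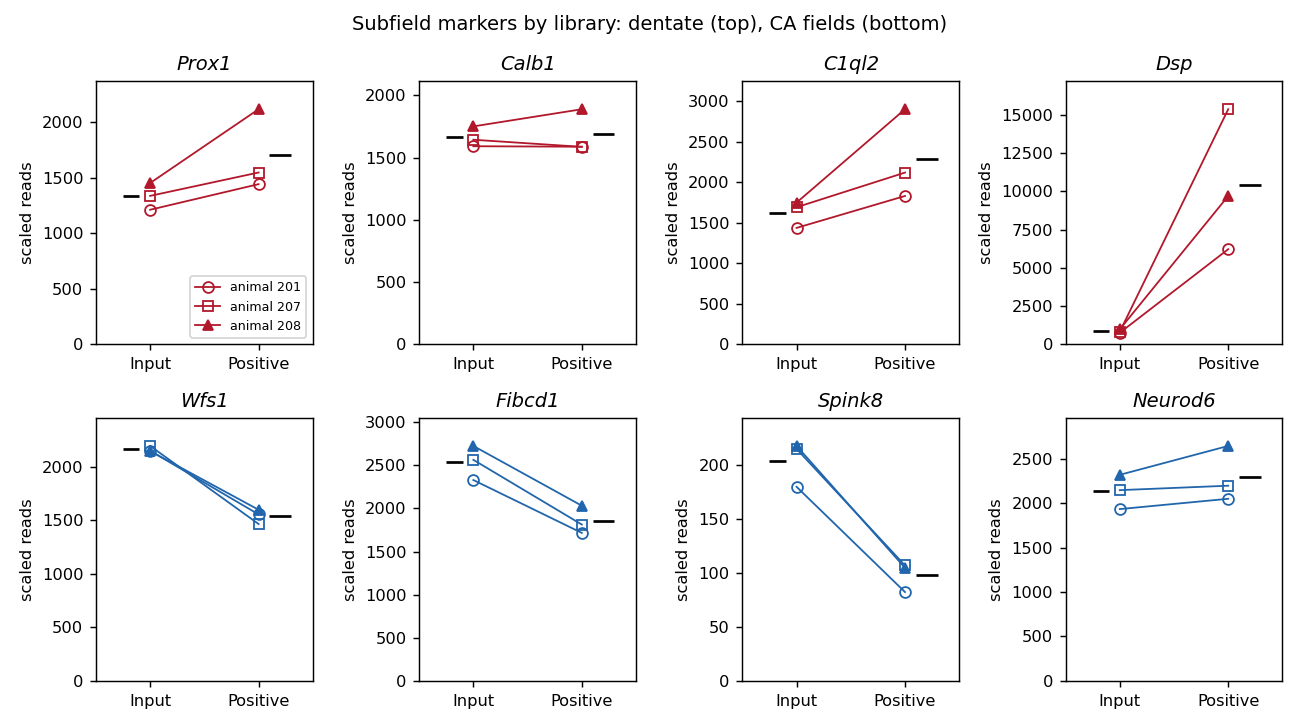
Scaled reads of the 8 subfield markers (vertical axis, from 0, a scale per gene) in Input and Positive, with 1 marker and line per animal (201, 207, 208); dentate markers are in the upper row, CA markers in the lower, and short black bars are the means. Dsp rose to between 6212 and 15366 scaled reads, C1ql2 and Prox1 rose in each animal, and the lines of Wfs1, Fibcd1 and Spink8 fell in each animal.

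Wfs1 encodes wolframin, a membrane protein of the endoplasmic reticulum that is dense in CA1 pyramidal neurons. The locus is on chromosome 5 (36966104 to 36989205, minus strand). It had 2147, 2192 and 2144 scaled reads in Input and 1553, 1464 and 1597 in Positive. All 3 Positive libraries lay below all 3 Input libraries, and the Input values were nearly equal. The mean fell from 2161 ± 26.9 to 1538 ± 67.9, to 71.2% of Input, with a log2 fold change of -0.49 ± 0.07 (edgeR adjusted p = 0.000142).

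Fibcd1 encodes a transmembrane protein with a fibrinogen-like domain that binds acetylated sugars, and in hippocampus its RNA marks CA1. Its gene lies on chromosome 2 (31813290 to 31846005, minus strand). The Input libraries held 2330, 2564 and 2725 scaled reads and the Positive libraries 1717, 1814 and 2032. The fractions did not overlap, and Positive stood at 73.0% of Input. The log2 fold change was -0.45 ± 0.09 (edgeR adjusted p = 0.00111), close in size to that of Wfs1. Both genes kept these calls under every alternative run.

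Spink8 encodes a Kazal-type serine peptidase inhibitor, and its RNA marks CA1 pyramidal neurons. The locus is on chromosome 9 (109812280 to 109826633, plus strand). It was the least abundant marker of the set, with 180.0, 215.2 and 218.0 scaled reads in Input and 82.4, 107.1 and 104.9 in Positive. Positive was below Input without overlap and stood at 48.0% of it. The log2 fold change of -1.06 ± 0.17 (edgeR adjusted p = 0.00024) was the lowest of the set, at percentile 3.98 of all genes tested, and it kept its call under every alternative run.

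Neurod6 encodes a basic helix-loop-helix transcription factor of pyramidal neurons, broad over the CA fields and also used by neocortical pyramidal neurons. Its gene lies on chromosome 6 (55677822 to 55681263, minus strand). The Input libraries held 1934, 2148 and 2320 scaled reads and the Positive libraries 2050, 2198 and 2645. The fractions overlapped, and Positive was higher in 3 of 3 animals by 1.06-fold, 1.02-fold and 1.14-fold. The log2 fold change was 0.11, with an approximate 95% interval from -0.09 to 0.31 (edgeR adjusted p = 0.419). The 3 CA markers that fell are labels of CA1, and Neurod6, which did not pass the test, is shared by the CA fields. Whether this bears on their changes was not tested. Other CA1 genes, described below, had a median log2 fold change of -0.24 and CA2 genes one of -0.64.

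In all, the fractions did not overlap for 5 of the 8 markers, C1ql2 and Dsp above Input and Wfs1, Fibcd1 and Spink8 below it. Over all genes tested 56.5% did not overlap, 28.9% above and 27.6% below. The count without overlap was thus close to the share over all genes, and the 3 dentate markers called were higher and the 3 CA markers called lower. Between -0.25 and 0.25 on the log2 scale lay 42.6% of all genes tested and 2 of the markers, Calb1 and Neurod6.

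**Figure D2:**
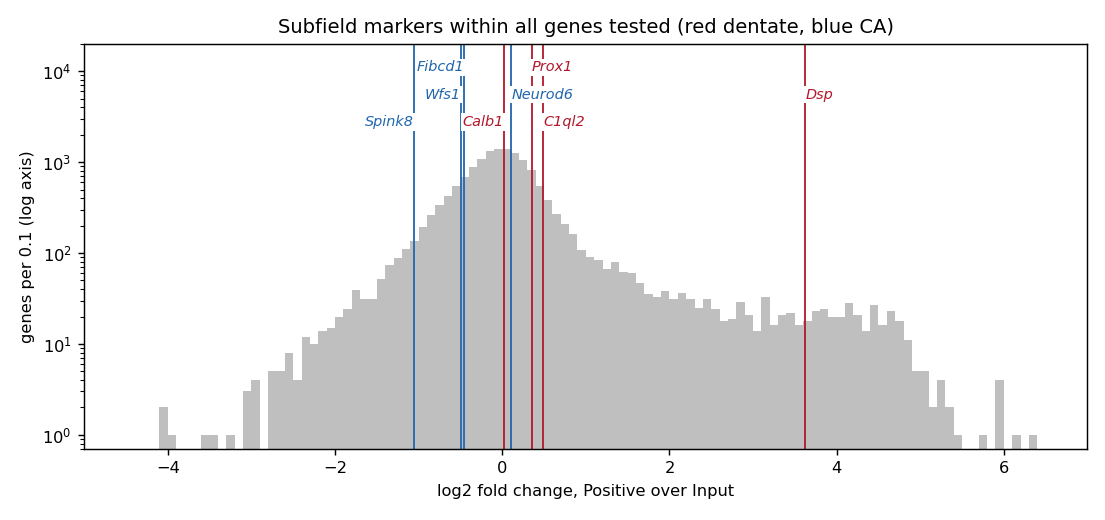
Number of genes per 0.1 of log2 fold change, Positive over Input (vertical axis logarithmic), over the 15343 genes tested, with the positions of the dentate markers in red and the CA markers in blue. All markers but Dsp (3.63) and Spink8 (-1.06) lie between -0.49 and 0.49, within the bulk of the genes.

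Ratios of markers within a library do not depend on how libraries were scaled. The reads of Prox1, Calb1 and C1ql2 together over those of the 4 CA markers were 0.643, 0.656 and 0.668 in the Input libraries of animals 201, 207 and 208 and 0.899, 0.941 and 1.08 in the Positive libraries. Every Positive ratio lay above every Input ratio, by 1.40-fold, 1.43-fold and 1.62-fold within the animals. Dsp was left out of this sum because its Positive reads exceed those of the other dentate markers together. C1ql2 over Wfs1 was 0.668, 0.771 and 0.815 in Input and 1.18, 1.45 and 1.82 in Positive. Prox1 over Fibcd1 was 0.520, 0.521 and 0.533 in Input and 0.840, 0.853 and 1.04 in Positive. Fibcd1 alone fell without overlap, so this ratio does not show a separate rise of Prox1. The fractions of Prox1 also overlapped when it was set against Slc17a7 in the same library. These ratios follow from the values of the single genes and are not separate evidence. Calb1 over Neurod6, the pair that did not pass the test, was 0.822, 0.765 and 0.754 in Input and 0.774, 0.722 and 0.714 in Positive. Here the fractions overlapped, but the ratio was lower in Positive in 3 of 3 animals, at 0.941, 0.943 and 0.946 of Input, the opposite direction to the other ratios of dentate to CA markers.

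**Figure D3:**
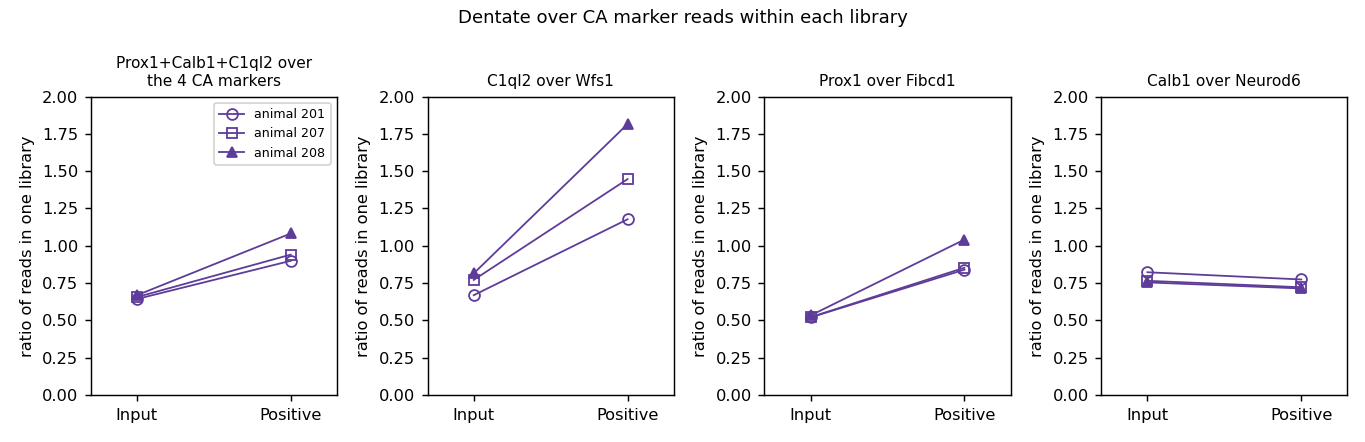
Ratio of dentate to CA marker reads within each library (vertical axis, no unit, from 0), in Input and Positive, with 1 line per animal. The summed ratio, C1ql2 over Wfs1 and Prox1 over Fibcd1 rose in each animal, and Calb1 over Neurod6 was slightly lower in Positive in each animal, between 0.714 and 0.822 throughout.

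Ratios among markers of one field were read in the same way. Wfs1 over Fibcd1, both CA1 labels, was 0.854 ± 0.0674 in Input and 0.833 ± 0.0635 in Positive (SD over 3 libraries), a difference within the spread between animals. Spink8 over Fibcd1, also CA1 labels, went from 0.0804 ± 0.00334 to 0.0529 ± 0.00563 without overlap, so the CA1 labels did not all move by the same amount. Fibcd1 over Neurod6 was 1.20, 1.19 and 1.17 in Input and 0.837, 0.825 and 0.768 in Positive, so these CA markers parted without overlap. On the dentate side, C1ql2 over Prox1 was 1.22 ± 0.0418 in Input and 1.34 ± 0.0582 in Positive, again without overlap and higher in 3 of 3 animals, by 1.07-fold, 1.08-fold and 1.14-fold. Dsp over Prox1 went from 0.617, 0.607 and 0.671 to 4.31, 9.94 and 4.58. The rise of Dsp over Prox1 was larger than that of C1ql2 over Prox1 in each animal. Set against Slc17a7, the vesicular glutamate transporter of hippocampal principal neurons, C1ql2 was 7.07% of its reads in Input and 9.50% in Positive, and Wfs1 was 9.35% and 6.48%, both without overlap. Prox1 (5.79% and 7.09%), Calb1 (7.20% and 7.08%) and Neurod6 (9.27% and 9.63%) overlapped on this scale.

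Levels of different genes were compared as scaled reads per kilobase (kb) of exon. In Input, Neurod6 was the highest at 993 ± 89.9 (SD, n = 3), followed by C1ql2 at 812 ± 83.1, Wfs1 at 571 ± 7.10 and Fibcd1 at 535 ± 41.9, of which the last pair overlapped. Calb1 followed at 343 ± 16.8, Spink8 at 249 ± 25.8, Prox1 at 159 ± 14.4 and Dsp at 87.4 ± 12.1. Dsp was the lowest marker per kb in Input although Spink8 had the fewest reads, since the exons of Dsp cover 9659 bases and those of Spink8 821. In Positive the order was changed at its ends. C1ql2 at 1141 ± 277, Dsp at 1079 ± 478 and Neurod6 at 1069 ± 144 overlapped one another at the top, and Spink8 at 120 ± 16.6 was the lowest. Between them stood Wfs1 at 406 ± 17.9, Fibcd1 at 390 ± 34.0, Calb1 at 348 ± 35.9 and Prox1 at 203 ± 43.3 per kb. Wfs1 and Fibcd1 overlapped here too, and both overlapped with Calb1.

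**Figure D4:**
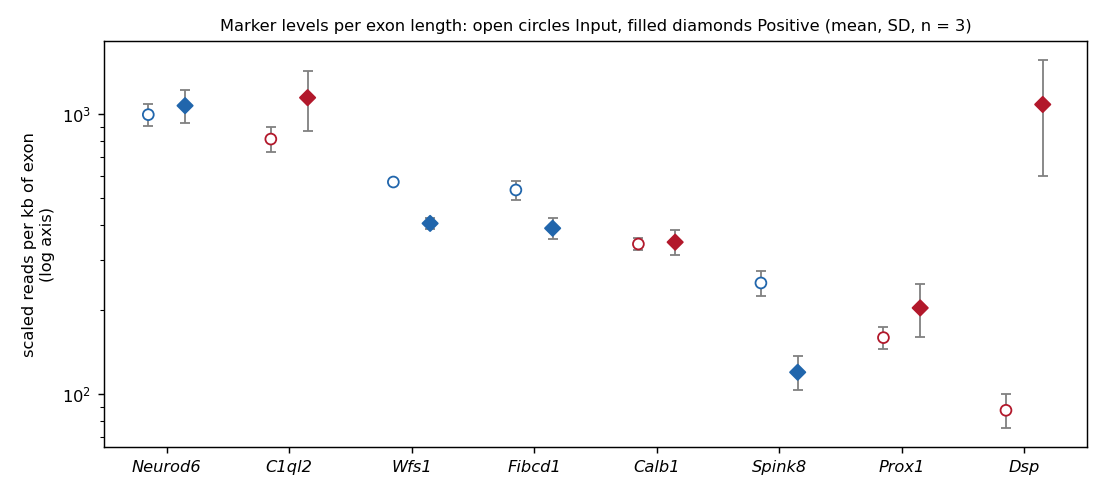
Scaled reads per kb of exon (logarithmic axis) for each marker, as mean with SD over 3 libraries, with open circles for Input and filled diamonds for Positive. Dsp moved from the lowest mean (87.4) to 1079, level with C1ql2 and Neurod6, and Spink8 moved to the lowest (120).

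Further genes of the same fields were taken from short hand-written lists. These lists were chosen with earlier results of these data known, so they are not independent support for the markers. Over all genes tested 24% were called higher and 22% lower. Of 11 other genes of dentate granule cells, 8 were called higher in Positive and 0 lower, with a median log2 fold change of 0.65, and the median was above 0 in each animal at 0.45, 0.44 and 0.72. Sema5a, a semaphorin that limits synapse formation on granule cells, had a log2 fold change of 0.76 ± 0.12. Stxbp6, which binds SNARE proteins, had one of 0.42 ± 0.12, a call that was lost without the Input library of animal 201 or 207 and with limma. Il16, a cytokine precursor also made by leukocytes and with a neuronal form, showed the largest value of the list at 1.43 ± 0.12. Among the genes of the list that were not called, named after their values were seen, Trpc6 stood at 0.26 and Glis3 at -0.33.

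Of 18 other genes of the CA fields, 8 were called lower in Positive and 2 higher, with a median log2 fold change of -0.30. The shares over all genes tested were 22% lower and 24% higher. The number called lower was 5 without the Positive library of animal 207. The list of CA2 held 3 genes called lower and 0 higher of 6, at a median of -0.64. The number called lower was 5 without the Positive library of animal 208 and under total count scaling, and ran from 2 to 5 over single libraries left out. Necab2, a neuronal calcium-binding protein, stood at -0.87 ± 0.08 and Amigo2, an adhesion molecule, at -0.89 ± 0.12. Cacng5, an AMPA receptor auxiliary subunit, stood at -0.67 ± 0.21, a call lost without the Input library of animal 201, where it was -0.37, without the Positive library of animal 207 and with limma. Rgs14, a regulator of G protein signalling in CA2, stood at -0.17 ± 0.10 without a call.

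The list of CA1 held 3 genes called lower and 1 higher of 6, at a median of -0.24. Gpr161, a ciliary receptor, stood at -0.63 ± 0.10, and Man1a, a Golgi mannosidase used in many cell types, at 0.44 ± 0.09. The calls of Mpped1 (-0.29 ± 0.09) and Pou3f1, a POU transcription factor (-0.31 ± 0.12), were each lost when any one of 4 single libraries was left out, and with limma. The number of genes of this list called lower was 1 without the Input library of animal 208 or the Positive library of animal 201 or 207. The list of CA3 held 2 genes called lower and 1 higher of 6, at a median of -0.06. The number called higher was 2 without the Positive library of animal 201. Coch, an extracellular matrix protein, stood at -1.30 ± 0.21, and Prkcd, a protein kinase C that is also present in immune cells, at 1.77 ± 0.17. Neither Grik4, a kainate receptor subunit (-0.20 ± 0.08), nor Homer3, a postsynaptic scaffold (0.08 ± 0.11), was called. The medians of CA1 and CA2 were thus further below 0 than that of CA3, a difference that was not tested.

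**Figure D5:**
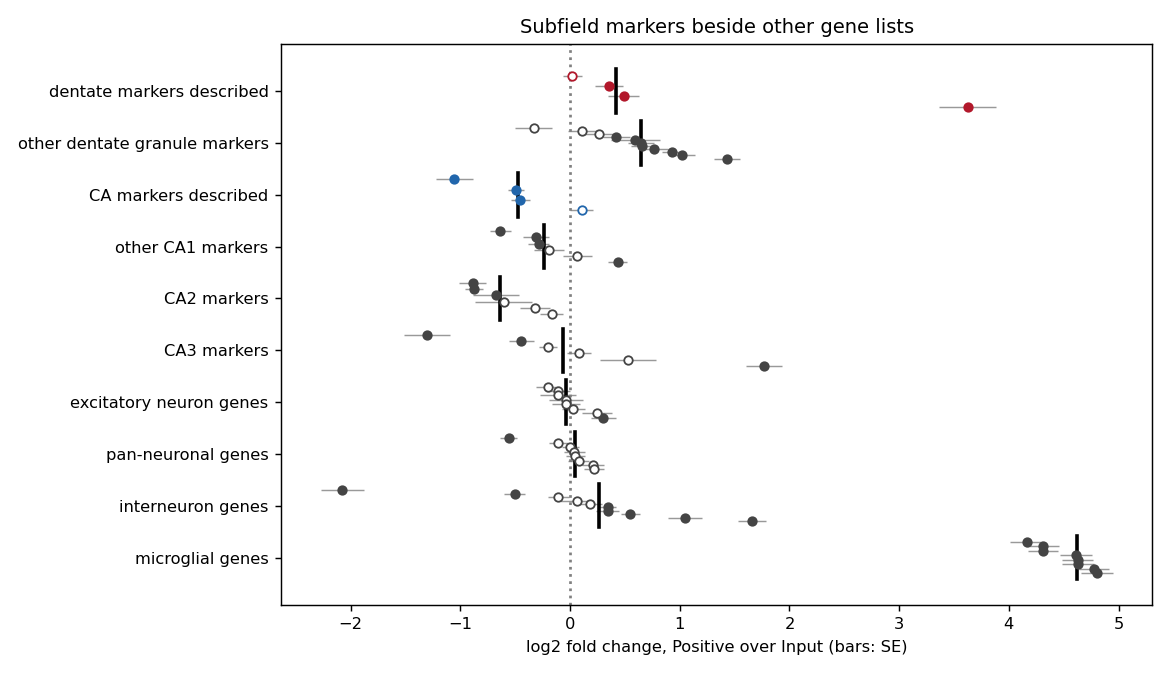
Log2 fold change, Positive over Input, of each subfield marker (with SE) and of the genes of the other lists, with each list on a line of its own, filled circles for called genes, open circles for the others and a black bar at the median. The granule cell genes lie mostly above 0 with a median of 0.65, and those of CA2 below 0 with a median of -0.64. The medians of the excitatory and pan-neuronal lists are near 0. The interneuron genes run from -2.07 to 1.66 with a median of 0.26, and the microglial genes lie between 4.16 and 4.80.

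Few of the genes shared by principal neurons of all fields, or by all neurons, were called. Of 8 excitatory neuron genes, 1 was called higher and 0 lower, with a median log2 fold change of -0.04 that was -0.24, -0.09 and 0.24 in animals 201, 207 and 208. Slc17a7 stood at 0.03 ± 0.11, and Camk2a, the kinase subunit abundant in forebrain dendrites, at 0.30 ± 0.12, a call that was lost in 7 of 14 alternatives. Without the Positive library of animal 208 the median of this list was -0.20 and 2 of its genes were called lower, and without that of animal 207 2 were called higher. Of 8 pan-neuronal genes, 0 were called higher and 1 lower by edgeR, with a median of 0.04. Snap25 and Syt1, of the vesicle fusion machinery, stood at 0.21 ± 0.10 and 0.04 ± 0.10, and Map2, whose RNA lies in dendrites, fell by 0.56 ± 0.08. The per-animal medians of the excitatory list were highest in animal 208, as were those of the dentate markers.

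Interneurons share Prox1 and Calb1 with granule cells, so their markers are given beside those genes. Of 10 interneuron genes, 5 were called higher and 2 lower, with a median of 0.26, and their summed level was 13447 to 14711 scaled reads in Input and 15498 to 16885 in Positive, with 0 of the 10 at 0 in any library. Gad1, the enzyme of GABA synthesis, had a log2 fold change of 0.34 ± 0.08, and Vip, a peptide of caudal interneurons, one of 1.66 ± 0.13. Htr3a, the serotonin receptor subunit of caudal interneurons, named after its value was seen, had one of 1.05 ± 0.16. Calb2, calretinin, also used by caudal interneurons and named after its value was seen, went the other way at -0.51 ± 0.10 and was called lower. Pvalb, of medial fast-spiking interneurons, stood at -2.07 ± 0.20, and Sst at -0.11 ± 0.10. The part of interneuron RNA in the values of Prox1 was not tested.

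Markers of other cells moved with the fractions as well. The 8 microglial genes summed to 4292 to 4704 scaled reads in Input and 83886 to 123300 in Positive, where Csf1r, the receptor that microglia need to survive, had a log2 fold change of 4.63 ± 0.14, P2ry12 one of 4.80 ± 0.15 and Aif1 one of 4.16 ± 0.15. All 6 endothelial genes were called higher, with a median of 1.97 and a summed level of 1283 to 1673 in Input and 3783 to 7429 in Positive. All 6 oligodendrocyte genes were called lower, with a median of -2.68, and so were 2 of 6 astrocyte genes (median -0.33), 5 of 6 leptomeningeal genes (median -0.73) and 5 of 6 genes of choroid plexus and ependyma (median -2.00). The astrocyte genes called lower numbered 1 without any one Input library and 6 without the Positive library of animal 201, and their median was -0.15 without the Positive library of animal 208. They numbered 6 under total count scaling and 5 with animal as a block. The leptomeningeal genes called lower numbered 3 without the Input library of animal 207. None of these list genes was at 0 in any library. The Positive microglial sum was highest in animal 207, as was Dsp, but lowest in animal 208, whereas Dsp was lowest in animal 201. The part of microglial or endothelial RNA in the values of Dsp, C1ql2 and Prox1 was not tested.

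A list of desmosome genes was added after the values of Dsp were seen. Of 12 genes, 8 were in the table, of which 1 was called higher and 2 lower, with a median log2 fold change of 0.06. Jup, plakoglobin, a partner of desmoplakin that also serves adherens junctions, had a log2 fold change of 0.75 ± 0.12 (edgeR adjusted p = 0.000252). Pkp4, a plakophilin relative of cell junctions, stood at -0.43 ± 0.07, and Perp, a desmosomal membrane protein, at -1.67 ± 0.22. Pkp2, Dsg2, Dsc3, Ppl and Evpl lay between -0.18 and 0.23 and were not called. Dsp stood alone among these genes in the size of its rise.

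The genes whose profile was most like that of each marker were found by the distance between log2(scaled reads + 1) values, centred per gene, over the 6 libraries, leaving out genes whose mean was under 100 scaled reads. The nearest to C1ql2 was Nptx1, a synaptic pentraxin, at a distance of 0.0872, with Dpf3 next at 0.150. The nearest to Prox1 were Kctd4 (0.0765) and Gtf2e1 (0.0933), and to Calb1 they were Alg2 (0.0530) and Chn1 (0.0535). The nearest to Wfs1 were the kinases Brsk1 (0.0632) and Cdk16 (0.0662), to Fibcd1 they were Tmcc1 (0.0879) and Ap1s1 (0.0928), and to Neurod6 Ccdc126 (0.0772) and Ppp3ca, a calcineurin subunit (0.0798). Spink8 had Gm2115 (0.190) and Rab10os (0.200) as its nearest genes. The nearest to Dsp were Blnk, an adaptor of immune receptor signalling, at 0.592 and Slfn8, an interferon-regulated gene, at 0.603. Their log2 fold changes were 3.57 and 3.39. This distance grows with the size of a gene's own change, so distances of different markers are not compared.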

How the data were processed

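RNA was measured in hippocampus of 3 mice, with 1 Input and 1 Positive library each, grouped by the fraction label. The authors prepared directional poly(A) libraries, aligned read pairs to mm10 in Strand NGS and deposited, per gene, expected counts (estimated counts, of which 17.4% to 23.1% per library were whole) and log2 values after DESeq normalization, centred on the Input median; the table kept genes that reached 20 raw reads in each library of either fraction. How mates of a pair were counted is not given in the sources used here.

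Counts were rounded and tested in R 4.3.3 with edgeR 4.0.16 (glmQLFit, glmQLFTest, RLE scaling, no block, Benjamini-Hochberg), on the 15343 genes, all 8 markers among them, that exceeded 20 scaled reads in each library of either fraction (45 did not). SE is from the F statistic. The intervals given as approximate were formed from this SE by a normal approximation, and are narrower than intervals of the test itself. Per-animal ratios used a pseudocount of 1. Exon lengths and gene positions are from GENCODE M21 (GRCm38), with a length for 15370 genes. DESeq2 1.42.0 and limma 3.58.1 were alternatives. The test was also run on simulated data with far fewer changed genes than were called here, so that run did not check the scaling of these libraries.

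Same-numbered libraries came from the same animal, and their deviations from the fraction means correlated at r = 0.194, 0.0584 and 0.120. Reads carry no molecular identifiers. The markers and lists were chosen with earlier results of these data known, so no test over a list was made. Named genes were all 8 markers, in each list the 2 with the highest mean and the called ones with the largest and smallest fold change, the 2 nearest profiles per marker, and Cx3cr1. Not every gene chosen this way is reported here. The desmosome list and limma were added after the data were seen.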

Additional observations from a re-analysis of the deposited data

How the results depend on the processing

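The number of markers called was 6 in the reported fit, 5 under total count scaling, 4 with limma, and 4 to 6 when single libraries were left out; 3 CA markers were called lower under every alternative run. Markers called higher numbered 3, but 1 with limma and 1 to 3 with single libraries left out (1 without the Input library of animal 201). With animal as a block 6 markers were called, each with the reported direction, and 7567 genes in place of 7053. All genes called ranged from 5539 to 7260 with single libraries left out, and were 6681 with DESeq2 and 5749 when genes averaging under 100 scaled reads were left out. Of the called genes 52.2% were higher, but 41.6% under total count scaling, which moved the median of all genes to -0.09 and that of the CA markers to -0.55. With single libraries left out, the dentate median without Dsp ran from 0.17 to 0.46 and the other CA genes called lower numbered 5 to 11. Genes that were not called changed sign. Under total count scaling Calb1 was -0.056, Slc17a7 -0.0465 and Syt1 -0.0373 (log2 fold change). With single libraries left out the log2 fold change ran from -0.0655 to 0.0646 for Calb1, -0.00515 to 0.181 for Neurod6, -0.00956 to 0.167 for Homer3, -0.0501 to 0.128 for Slc17a7 and -0.0512 to 0.088 for Syt1. The causes were not tested. A library left out leaves 2 against 3, and 3 mice per fraction limit what size of difference can be called. Halving the reads, as if both mates had been counted, kept 6 markers called. Pseudocounts of 0.1 and 5 were also run for the ratios per animal, but a pseudocount cannot change the sign of such a ratio.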
